A study of Mus musculus with 12 samples.

Results

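H19 and Slc22a18 are a pair of imprinted genes of distal mouse chromosome 7. They were chosen by gene name from the 99 genes analysed here, and both were among the 70 genes that passed the limit for testing, set at 1 FPKM or more in 3 or more of the 12 libraries. FPKM is the number of fragments scaled to transcript length and to library size. H19 was highest in iPSCs and lowest in iMSCs, whereas Slc22a18 was highest in Fibs and low in both iMSCs and BMSCs.

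The libraries came from 4 cell types of the mouse, with 3 independent cultures of each, and every pair of cell types was compared. Fibs were wild-type skin fibroblasts, grown from ear skin of young adult female C57BL/6 mice in high-sugar DMEM with serum. iPSCs were such fibroblasts reprogrammed by Sendai virus carrying human Oct4, SOX2, Klf4 and c-Myc. They were started on an inactivated feeder layer, picked as colonies and kept in DMEM/F-12 with serum replacement and LIF. How many colonies the iPSC cultures came from is not stated. iMSCs were made from iPSCs through embryoid bodies and induced with TGF-β1 at 10 ng/ml and bFGF at 5 ng/ml. BMSCs were wild-type stromal cells of the femoral marrow cavity, for which no age is given. iMSCs and BMSCs were grown in low-sugar DMEM with serum. The medium of iPSCs and that of Fibs were each used for 1 cell type, so medium and cell type cannot be told apart there. Both iPSCs and iMSCs carry the reprogramming step, which Fibs and BMSCs do not.

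Library totals, implied by the ratio of count to FPKM, were 66114058 to 77355820 counts. Low counts mostly came in steps of 4, so intervals for counting error take each count over 4. Of 10 listed pluripotency markers, Cdh1 was analysed, which encodes the adhesion molecule E-cadherin. Its FPKM was 132 to 143 in iPSCs and at most 0.672 in any other library. Pou5f1 and Nanog, which define pluripotent cells, were not analysed here. Of 16 listed stromal markers, 3 were analysed (Itga5, Cav2 and Acvrl1), and their summed FPKM was 59.4 to 63.8 in iPSCs, 65.6 to 80.3 in Fibs, 74.0 to 77.8 in BMSCs and 96.9 to 189 in iMSCs. The highest sum was that of iMSC replicate 2, and the largest part of each sum was Itga5. Its mean FPKM was 37.6 in Fibs, 57.5 in iPSCs, 113 in iMSCs and 62.0 in BMSCs. Itga5 was thus lowest in Fibs and higher in iPSCs than in Fibs. Cav2 and Acvrl1 went the other way, being highest in Fibs and lowest in iPSCs. Cav2 had a mean FPKM of 13.8 in Fibs, 1.72 in iPSCs, 5.59 in iMSCs and 7.57 in BMSCs, and Acvrl1 had 20.3, 1.77, 10.1 and 6.47. Replicate 2 of the iMSCs stood apart from its group. The chi-square of its counts against the other iMSC libraries was 566 and 634 per gene. For the other pairs of replicates it was 14.7 to 45.4.

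Imprinted genes are transcribed mainly from the copy inherited from 1 parent, because DNA methylation laid down in the egg or the sperm marks a control region. H19 is a long noncoding RNA transcribed from the maternal copy. A control region upstream of it, methylated in sperm and bound by the insulator protein CTCF when unmethylated, sets the choice between H19 and the growth factor gene Igf2. H19 is abundant in fetal tissues and placenta and is shut down in most tissues after birth. Slc22a18 encodes a membrane transporter of the organic cation transporter family, and is expressed mainly from the maternal copy under a second control region, in which the noncoding RNA Kcnq1ot1 starts. The table gives 1 value per gene and library, so maternal and paternal transcripts cannot be told apart here. Fewer expressing cells and less RNA per cell cannot be told apart either.

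H19 lies on the minus strand of chromosome 7, with first base 142575529 and last base 142578143, the same in the table as in GENCODE M21 on GRCm38. Slc22a18 lies on the plus strand, from 143473736 to 143499334 in the same build, and its start site is 896 kb from that of H19. Igf2 lies 88.7 kb from H19 by start site, and Cdkn1c, a growth-restraining cell cycle inhibitor, and Phlda2 flank Slc22a18. Igf2, Kcnq1ot1, Cdkn1c and Phlda2 were not analysed here.

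**Figure D1:**
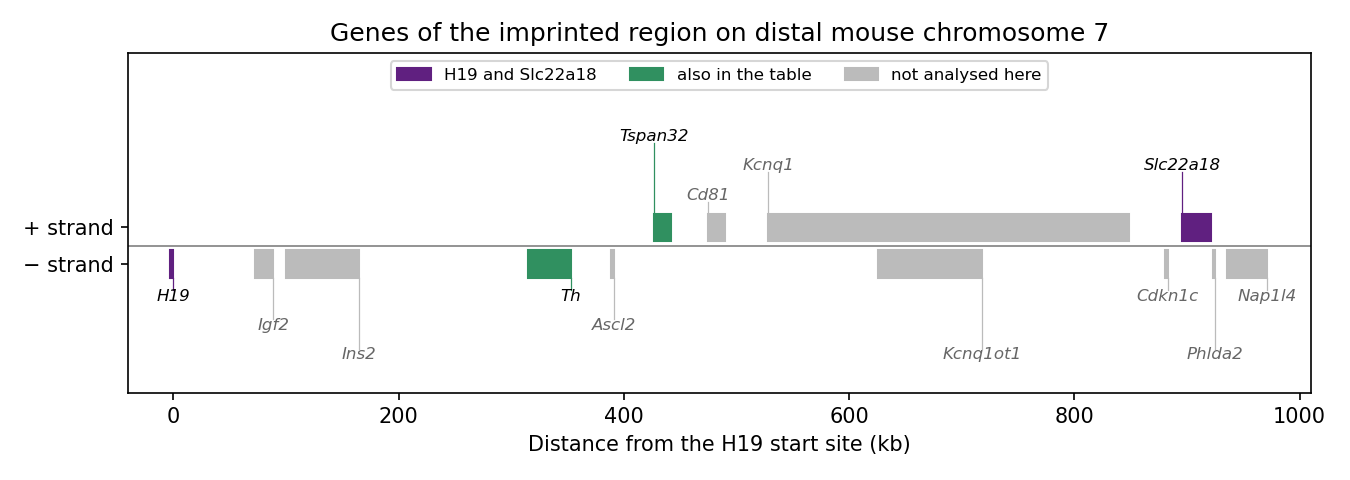
Genes of the imprinted region by distance from the H19 start site, in kb, with plus-strand genes above the line and minus-strand genes below it. H19 and Slc22a18 start 896 kb apart, and Th and Tspan32 between them are the other genes of the region that were analysed.

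The table lists 4 transcripts for H19, of 817 to 2286 bases, and 5 for Slc22a18, of 862 to 1552 bases. Of the latter 2 are annotated as protein coding and 3 as targets of nonsense-mediated decay. All transcripts of a gene are summed into 1 value. The length behind each FPKM, taken back from count and library total, was 2460 to 2503 bases for H19 and 1699 to 1730 for Slc22a18. The exons of the listed transcripts together cover 2460 and 1699 bases. H19 is also the host of Mir675, and 2 short RNA genes, Gm27483 and Gm27786, are annotated inside it on the opposite strand. Whether reads were counted by strand is not stated, so reads from these cannot be separated from H19.

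The Mir675 hairpin is the part of H19 that is processed into microRNAs, so it is shown here with its products, from RefSeq on GRCm38.p6. It lies on the minus strand of chromosome 7 from 142577064 to 142577147, which is bases 997 to 1080 of a 2286-base H19 transcript, within exon 1 of 5. Of the 7 H19 transcripts in GENCODE M21, 3 contain it. In the hairpin the capitals mark the 2 mature arms, and in each mature sequence they mark the seed, bases 2 to 8, which pairs with target RNAs. No other mouse microRNA in the RefSeq table shared either seed. The microRNAs themselves were not measured, since libraries were made from polyadenylated RNA.
Mir675 hairpin: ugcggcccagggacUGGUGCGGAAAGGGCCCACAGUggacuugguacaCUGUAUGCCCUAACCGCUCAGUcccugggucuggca
mmu-miR-675-5p: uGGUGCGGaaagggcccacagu
mmu-miR-675-3p: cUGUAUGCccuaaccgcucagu

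Of the members, Slc22a18 had an entry in the RefSeq promoter table and H19 did not. The promoter of Slc22a18, chr7:143473539-143473838 on the plus strand of GRCm38.p6, spans 250 bases before to 50 bases after the RefSeq start. A further protein-coding transcript in GENCODE M21 starts at 143475101, outside this window. The window is shown because methylation, the mark of imprinting, falls on CG dinucleotides, which are in capitals.
Slc22a18 promoter: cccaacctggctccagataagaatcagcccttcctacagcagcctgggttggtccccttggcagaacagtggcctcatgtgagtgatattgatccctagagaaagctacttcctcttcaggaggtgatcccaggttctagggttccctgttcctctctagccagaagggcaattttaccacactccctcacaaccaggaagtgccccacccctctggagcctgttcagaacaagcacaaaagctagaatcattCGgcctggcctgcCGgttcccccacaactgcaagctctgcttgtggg
It holds 2 CG dinucleotides, against a median of 7 over the 32851 promoters of the table, of which 23.3% have as few or fewer. On either strand, 3 motifs were searched and none was in this window. They were GGGCGG (its other strand CCGCCC), held by 35.7% of all promoters, TATAAA, held by 13.6%, and CCAAT (its other strand ATTGG), held by 37.4%. Methylation was not measured in these cells.

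In Fibs, the FPKM of H19 was 4.13, 3.18 and 4.66 in replicates 1 to 3. In iPSCs it was 23.6, 24.6 and 35.3. Every iPSC library thus lay above every Fib library, and iPSC replicate 3 was the highest of all 12. In iMSCs it was 0.916, 0.181 and 1.04, with replicate 2 the lowest of all libraries. In BMSCs it was 2.45, 3.14 and 2.099. The BMSC libraries lay above all iMSC libraries and, narrowly, below all Fib libraries.

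By mean FPKM the order for H19 was iPSCs (27.9 ± 6.49, SD, n = 3), Fibs (3.99 ± 0.752), BMSCs (2.56 ± 0.530) and iMSCs (0.711 ± 0.463). Among the 99 genes of the table, H19 ranked 10th to 14th by FPKM in the iPSC libraries, 41st to 45th in Fibs, 48th to 52nd in BMSCs and 58th to 66th in iMSCs. No 2 cell types overlapped in any of the 6 comparisons, where between 42.9 and 91.4% of the tested genes did not overlap. Beyond the iMSC libraries the spread was modest, with an SD of 18.9 to 23.3% of the mean, against 65.1% in iMSCs.

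The low H19 value of iMSC replicate 2 rested on 32 counts, or 0.453 CPM, the count scaled to a library total of 1e6 (exact 95% Poisson interval 0.196 to 0.893). Replicates 1 and 3 had 151 and 187 counts, or 2.28 (1.61 to 3.14) and 2.58 CPM (1.896 to 3.44). The intervals do not overlap, and they cover counting error only. Without replicate 2 the iMSC mean was 0.977 FPKM. In this library Itga5, an integrin subunit, was high with an FPKM of 177, against 79.4 and 83.2 in the others, while Cav2, a caveolin, was low with 4.09 against 6.55 and 6.14. Of the 70 tested genes, 14 lay at least as far from the other iMSC libraries as H19 did on the log2(FPKM + 1) scale, H19 included. On that scale the added 1 exceeds the H19 value of replicate 2 and so shrinks its distance. By plain FPKM, replicates 1 and 3 had 5.06 and 5.73 times the H19 of replicate 2. The part of the general difference of replicate 2 in its H19 level was not tested.

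In Fibs, the FPKM of Slc22a18 was 6.11, 9.15 and 10.5 in replicates 1 to 3. In iPSCs it was 4.004, 3.91 and 5.01. All Fib libraries were above all iPSC libraries, with Fib replicate 1 the nearest to them. In iMSCs it was 1.06, 0.50 and 0.857. In BMSCs it was 0.522, 0.388 and 0.829. The iMSC and BMSC libraries overlapped each other and lay below every Fib and iPSC library.

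By mean FPKM the order for Slc22a18 was Fibs (8.58 ± 2.24, SD, n = 3), iPSCs (4.31 ± 0.609), iMSCs (0.806 ± 0.284) and BMSCs (0.580 ± 0.226). The transporter gene ranked 27th to 39th of the 99 genes in Fibs and 49th to 52nd in iPSCs, 59th to 61st in iMSCs and 57th to 65th in BMSCs. The cell types did not overlap in 5 of the 6 comparisons, iMSCs against BMSCs being the exception. In those 5, 72.9 to 91.4% of the tested genes did not overlap, and in the exception 42.9% did not. As for H19, replicate 2 was the lowest iMSC library and replicate 3 the highest iPSC library. The iMSC and BMSC values rested on few fragments, 286 and 214 counts over 3 libraries, against 3066 in Fibs and 1645 in iPSCs.

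**Figure D2:**
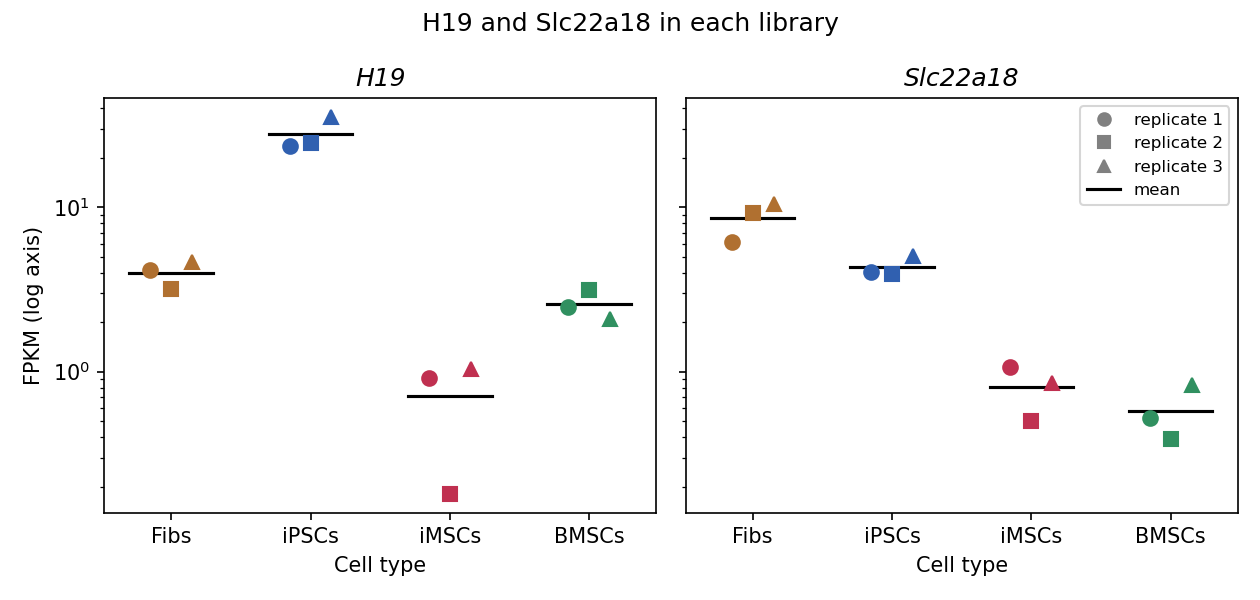
FPKM (log axis) of H19 and Slc22a18 in each of the 12 libraries, by cell type, with the mean as a line and the symbol's shape as the replicate number. H19 is highest in iPSCs (23.6 to 35.3) and lowest, at 0.181, in iMSC replicate 2, while Slc22a18 is highest in Fibs (6.11 to 10.5).

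The quasi-likelihood test of edgeR was run on the counts of the 70 genes, with library totals as the scale. Calling a gene took both an adjusted p (Benjamini-Hochberg) below 0.05 and a log2 fold change beyond 1 in either direction. Each gene was called in 4 of the 6 comparisons and passed the adjusted p alone in 5. Over the 6 comparisons, 5.71 to 54.3% of the tested genes were called, and 17.1 to 87.1% passed the adjusted p alone. An exact two-sided permutation test of the FPKM values gave p = 0.1, the smallest that 3 libraries against 3 allow, in each of the 11 comparisons of a gene without overlap, and p = 0.3 for Slc22a18 between iMSCs and BMSCs. Adjusted over the 12 tests these were 0.109 and 0.3. The comparisons share groups, so a level that is high in 1 cell type enters 3 of them.

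Between Fibs and iPSCs the pair differed in opposite directions. H19 was higher in iPSCs than in Fibs, 6.98 times by mean FPKM, a log2 fold change of 2.80 (standard error, abbreviated SE, 0.21, adjusted p = 1e-05 in edgeR). Slc22a18 was lower, with log2 fold change -0.99 (SE 0.24, adjusted p = 0.00652), which passed the adjusted p but lay just inside the fold threshold. H19 was therefore called and Slc22a18 was not, where 54.3% of the tested genes were called, 32.9% as higher in iPSCs and 21.4% as lower. The adjusted p alone was passed by 87.1%, and 91.4% did not overlap. The median tested gene had a log2 fold change of 0.57 here. Scaling by TMM or median ratio, computed from the tested genes, brought that median to 0.11 and 0.14, and under it Slc22a18 was called with -1.45 and -1.43. It was also called without Fib replicate 1 (-1.18) and without iPSC replicate 3 (-1.11), with adjusted p from 9.35e-09 to 0.0288 over all alternatives. H19 kept its call in each alternative. iPSC replicate 3 stood above the other iPSC libraries in both genes, and of the 70 genes only 1 other lay at least as far from them as H19. In that library the FPKM of the stromal markers Itga5, Cav2 and Acvrl1 was 56.1, 1.67 and 1.68. Over the iPSC libraries it was 56.0 to 60.5, 1.67 to 1.81 and 1.59 to 2.03. Why H19 and Slc22a18 were higher in iPSC replicate 3 was not tested.

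Both genes fell between iPSCs and iMSCs. H19 was lower in iMSCs with log2 fold change -5.27 (SE 0.66, adjusted p = 0.000594 in edgeR), a ratio of mean FPKM of 39.2. Slc22a18 was lower with -2.42 (SE 0.37, adjusted p = 0.00134), a ratio of 5.35. Both were called, where 54.3% of the tested genes were called, 17.1% as higher in iMSCs and 37.1% as lower. The adjusted p alone was passed by 75.7%, and 80.0% did not overlap. The median tested gene had -0.29, and 0.03 with TMM scaling, under which H19 had -4.96 and Slc22a18 -2.105. H19 had the 10th largest difference of the 70 genes and Slc22a18 the 18th.

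Both genes were also lower in iMSCs than in the Fibs from which the lineage started. Slc22a18 had the log2 fold change -3.41 (SE 0.38, adjusted p = 0.00192 in edgeR), a ratio of mean FPKM of 10.6, and this was the 2nd largest difference of the 70 tested genes. H19 had -2.47 (SE 0.64, adjusted p = 0.0183), a ratio of 5.61. Both were called, as were 38.6% of the tested genes, 14.3% as higher in iMSCs and 24.3% as lower. The adjusted p alone was passed by 55.7%, and 72.9% did not overlap. The call of H19 was a narrow one. It was lost without Fib replicate 1 (adjusted p = 0.0515), 2 (0.0501) or 3 (0.0586), over a range of 4.58e-05 to 0.0586, while the log2 fold change stayed between -2.85 and -2.01 when a library was left out.

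Between iMSCs and BMSCs, neither gene passed the test, though the libraries did not overlap in H19. Its mean FPKM was 3.60 times lower in iMSCs, but with log2 fold change -1.83 (SE 0.61) it did not pass in edgeR (adjusted p = 0.093). The size was the 5th largest of the 70 genes. Without iMSC replicate 2, where the spread within iMSCs is small, H19 was called with -1.38 (adjusted p = 0.0016, range 0.0016 to 0.257 over the alternatives). It was also called in DESeq2, in limma on log2(FPKM + 1) and with all 12 libraries in 1 fit. Slc22a18 had the log2 fold change 0.47 (SE 0.47, adjusted p = 0.543) and did not pass in any alternative. Neither gene was called, where 5.71% of the tested genes were, 2.86% as higher in iMSCs and 2.86% as lower. The adjusted p alone was passed by 17.1%, and 42.9% did not overlap. For Slc22a18 the SE was as large as the estimate, with 47 to 120 counts per library.

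Slc22a18 was far lower in BMSCs than in Fibs. The transporter gene had the log2 fold change -3.87 (SE 0.34, adjusted p = 1.36e-05 in edgeR), a ratio of mean FPKM of 14.8, and the 3rd largest difference of the 70 genes. H19 was lower in BMSCs with -0.64 (SE 0.22, adjusted p = 0.0263), a ratio of 1.56, so that it passed the adjusted p without reaching the fold threshold. Slc22a18 was called, as were 25.7% of the tested genes, 8.57% as higher in BMSCs and 17.1% as lower. The adjusted p alone was passed by 75.7%, and 78.6% did not overlap. In H19 the nearest libraries, BMSC replicate 2 and Fib replicate 2, had 7.74 and 7.83 CPM. Their intervals for counting error, 6.49 to 9.15 and 6.59 to 9.25 CPM, overlapped. H19 did not pass the adjusted p without Fib replicate 3 (0.0927) or BMSC replicate 1 (0.0765) or 3 (0.0804), nor with all 12 libraries in 1 fit (0.235), and the range was 0.0077 to 0.235.

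Against iPSCs, BMSCs were lower in both genes, as iMSCs were. H19 had a log2 value of -3.44 (SE 0.21, adjusted p = 1.94e-06 in edgeR), a ratio of mean FPKM of 10.9. Slc22a18 had -2.88 (SE 0.31, adjusted p = 5.11e-05), a ratio of 7.43. Both were called, as were 48.6% of the tested genes, 18.6% as higher in BMSCs and 30.0% as lower. The adjusted p alone was passed by 78.6%, and 82.9% did not overlap. The median tested gene had -0.26, and 0.13 with TMM scaling, and both genes kept their calls in each alternative.

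**Figure D3:**
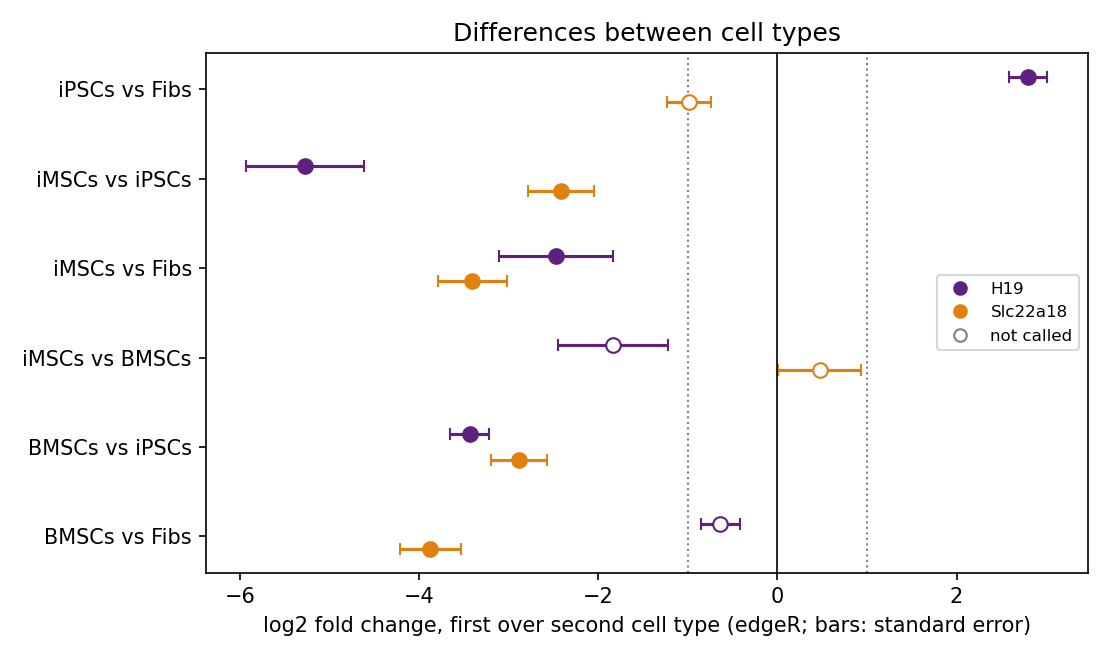
log2 fold change of H19 and Slc22a18 in the 6 comparisons (edgeR, bars show the standard error, open symbols were not called, dotted lines mark -1 and 1). H19 runs from -5.27 in iMSCs against iPSCs to 2.80 in iPSCs against Fibs, and Slc22a18 is lowest, at -3.87, in BMSCs against Fibs.

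The balance between the genes was compared within each library, where the library total cancels. H19 had 5.90, 6.29 and 7.05 times the FPKM of Slc22a18 in the iPSC libraries. In BMSCs it had 4.69, 8.10 and 2.53 times. In Fibs the order was the other way round, with Slc22a18 at 1.48, 2.88 and 2.25 times the FPKM of H19. In iMSCs the values were near each other in replicates 1 and 3, with Slc22a18 at 1.16 and 0.827 times H19, and 2.76 times in replicate 2. H19 thus exceeded Slc22a18 in all iPSC and BMSC libraries and in no Fib library. These plain ratios overlapped between iMSCs and Fibs and between BMSCs and iPSCs.

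On the log2 scale with a pseudocount of 1, the ratio of Slc22a18 to H19 was 0.92 ± 0.41 (SD, n = 3) in Fibs, 0.11 ± 0.24 in iMSCs, -1.17 ± 0.41 in BMSCs and -2.43 ± 0.15 in iPSCs. With this pseudocount, which is above most of the iMSC and BMSC values of Slc22a18, no 2 cell types overlapped. Each of the 6 pairs then gave p = 0.1 in an exact two-sided permutation test, also after adjustment, the smallest possible with 3 against 3. The difference was largest between iPSCs and Fibs, -3.35 (SE 0.25). It was 1.28 (SE 0.27) between iMSCs and BMSCs and 1.25 (SE 0.25) between BMSCs and iPSCs, and these depended on the pseudocount, with 2.35 and 0.646 at a pseudocount of 0.1.

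**Figure D4:**
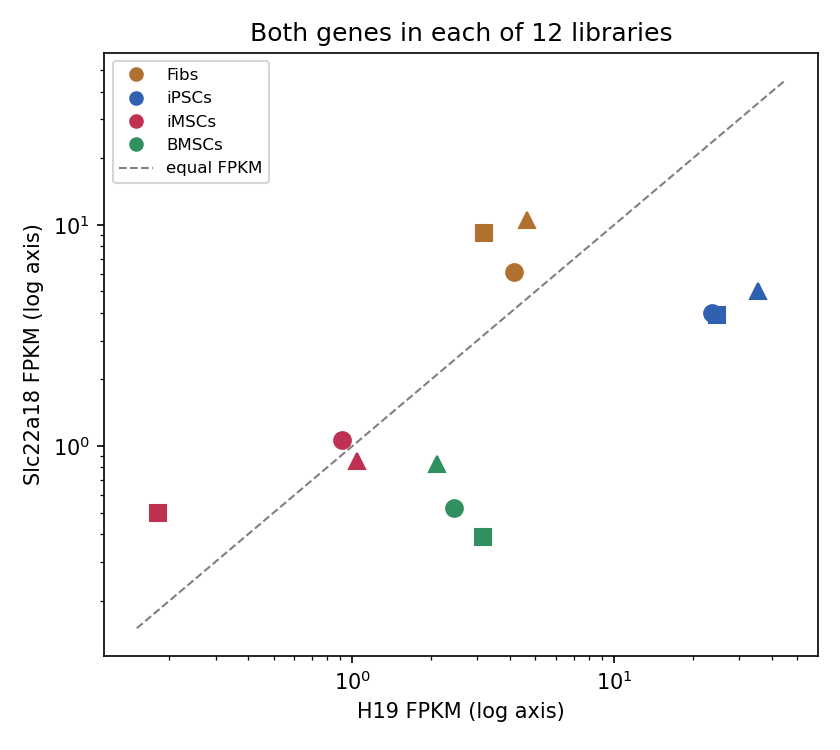
FPKM of Slc22a18 against that of H19 (log axes) in the 12 libraries, coloured by cell type, with the dashed line at equal FPKM. All Fib libraries lie above the line and all iPSC and BMSC libraries below it, and iMSC replicate 2 (0.181 and 0.50) is apart at the lower left.

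Of 94 genes listed as imprinted in the mouse, 4 were in the table, and the other pair, Th and Tspan32, also lie on distal chromosome 7 between H19 and Slc22a18. Th encodes tyrosine hydroxylase, the first enzyme of catecholamine synthesis, and Tspan32 a tetraspanin of blood cells. Neither reached the limit for testing. Th had 9, 12 and 34 counts in the iPSC libraries and 20 in Fib replicate 2. It had 0 counts in the other 8 libraries, which allows up to 0.164 to 0.181 CPM (3 steps of 4 counts). Tspan32 had an FPKM of 0.178, 0.177 and 0.131 in iPSCs. In iMSCs it had 0.0769, 0.0123 and 0.0892, again lowest in replicate 2, and in Fibs and BMSCs at most 0.0360. Replicate 2 had 6 counts, and its interval for counting error, 0.00611 to 0.363 CPM, overlapped those of the other iMSC libraries. By FPKM, H19 and Tspan32 thus had their highest libraries among the iPSCs. For Tspan32 the interval of iPSC replicate 1, 0.696 to 1.75 CPM, overlapped that of iMSC replicate 3, 0.284 to 1.05 CPM. For Th the highest was iPSC replicate 3, with an interval for counting error of 0.196 to 0.849 CPM. This overlapped the interval of Fib replicate 2, 0.0915 to 0.658 CPM, so its order is not settled. The table held no other solute carrier gene than Slc22a18.

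The tested genes whose profiles were nearest to H19 over the 12 libraries were Arvcf, a catenin that binds cadherins, Dlat, a subunit of the pyruvate dehydrogenase complex, and Trim25, a ubiquitin ligase of antiviral signalling. The root mean square difference of their standardized log2(FPKM + 1) profiles from H19 was 0.196, 0.322 and 0.353. Arvcf had an FPKM of 6.78 ± 0.212 (SD, n = 3) in iPSCs, 2.84 ± 0.167 in Fibs, 2.37 ± 0.0706 in BMSCs and 1.57 ± 0.0869 in iMSCs. It shared the order of H19 over a narrower range. Slc22a18 was the 30th of the 69 genes by nearness to H19. Nearest to Slc22a18 were Fer, a tyrosine kinase (0.586), Ccnd2, which encodes cyclin D2 (0.658), and Acvr1b, a receptor of the TGF-β family (0.729), all highest in Fibs. Fer had an FPKM of 8.75 ± 0.573 in Fibs, 4.89 ± 0.379 in iPSCs, 4.29 ± 0.404 in BMSCs and 2.83 ± 0.563 in iMSCs. No gene was as near to Slc22a18 as the first 3 were to H19. These distances describe libraries that fall into 4 cell types, and they were not tested.

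**Figure D5:**
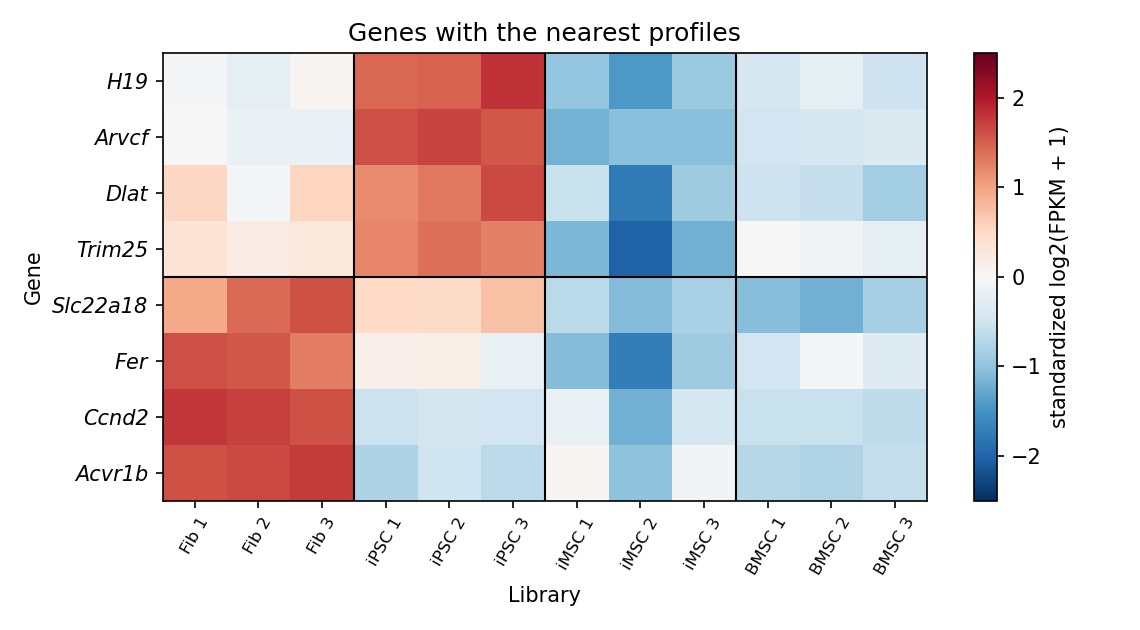
Standardized log2(FPKM + 1) (colour, mean 0 and SD 1 per gene) of H19, Slc22a18 and the 3 tested genes nearest to each, in the 12 libraries. The H19 group is highest in iPSCs and, by mean, lowest in iMSCs, most so for Trim25 in replicate 2. For Dlat the iMSC and BMSC libraries overlap. The Slc22a18 group is highest in Fibs.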

How the data were processed

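RNA of 12 mouse libraries was sequenced as paired ends from polyadenylated RNA. By the submitters' processing notes the build was mm9 and the tools were StringTie 1.3.4d, HISAT2 2.0.4 and cutadapt 1.9, while 85 of the 99 genes have the start and end of GENCODE M21 (GRCm38). The deposited FPKM take account of gene length and of sequencing depth, and the methods of the authors name StringTie and Ballgown for them. The deposited counts are whole numbers that the authors did not normalize, and no source used here says how they were counted. Of 77 counts from 1 to 13, 61 were 4, 8 or 12. The 99 genes held 0.365 to 0.485% of the library totals, which were therefore taken from count, FPKM and length of 7 to 9 genes with 1 transcript and at least 500 counts.

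edgeR 4.0.16 in R 4.3.3 (quasi-likelihood test, prior count 0.125) was fitted on the 6 libraries of each comparison and checked on simulated counts. These had the same spread setting for all genes and no library that stood apart. The check therefore does not cover comparisons with iMSC replicate 2. The study's methods use DESeq2, with a false discovery rate and a fold threshold. Alternatives were TMM and median-ratio scaling, DESeq2 1.42.0, limma 3.58.1 on log2(FPKM + 1) or log2(FPKM + 0.1), no filter or an FPKM of at least 5, all 12 libraries in 1 fit, a replicate block and leaving out each library. Counts divided by 4 were an alternative chosen after the data were seen. The members and lists were chosen with earlier results of these data known. Named genes were the members, listed imprinted genes in the table and the 3 nearest profiles for each member. Cell type markers and Itga5, Cav2 and Acvrl1 in single libraries are given as a description only. The cultures were independent by the study's methods. The edgeR p-values rest on the spread between cultures, moderated toward that shared by the 70 tested genes. The permutation tests use each gene's own values. Neither measures the spread between animals or between iPSC colonies.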

Additional observations from a re-analysis of the deposited data

How the results depend on the processing

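No fold change of H19 or Slc22a18 changed direction in any of the 204 alternative values over 12 comparisons, and 9 of the 12 kept their side of the threshold in all of them. The exceptions are these. H19 in iMSCs against BMSCs was called with DESeq2 on library totals (-1.84) or its own size factors (-1.83), limma on log2(FPKM + 1) (-1.09) and all 12 libraries in 1 fit (-1.83), and ran from -2.21 to -1.38 without 1 library. Slc22a18 in iPSCs against Fibs was called with TMM (-1.45), median-ratio scaling (-1.43) and DESeq2's own size factors (-1.43), and ran from -1.18 to -0.82 without 1 library. H19 in iMSCs against Fibs ran from -2.85 to -2.01. With a replicate block H19 had -2.08 in iMSCs against BMSCs and was not called, and the block changed no call of either gene. The labels give no shared origin for a number, 5 of 18 same-numbered pairs had correlated deviations over 0.1 (range -0.388 to 0.436), and not every library matched its own number best. The number of genes called between iMSCs and BMSCs, 4, was 8 with all 12 libraries, 1 with the block, 12 by adjusted p alone and 1 to 5 without 1 library. By adjusted p alone 61 genes passed in iPSCs against Fibs (main count 38), 53 in BMSCs against Fibs (18, and 11 in limma on log2(FPKM + 1)) and 55 in BMSCs against iPSCs (34). Calls in iMSCs against iPSCs were 12 higher and 26 lower, but 16 and 18 with TMM and 16 and 17 by median ratio. In iPSCs against Fibs they were 23 and 15, but 19 and 20 or 19 and 19, and in iMSCs against BMSCs 2 and 2, but 3 and 1 by median ratio and 4 and 2 with DESeq2's own size factors. With a pseudocount of 0.1 the log2 ratio of Slc22a18 to H19 differed by 2.995 between iMSCs and iPSCs (2.53 with a pseudocount of 1), 2.35 between iMSCs and BMSCs (1.28), -3.07 between BMSCs and Fibs (-2.097) and 0.646 between BMSCs and iPSCs (1.25). For all of these the cause was not tested. The exact 95% intervals for counting error of Slc22a18 in iMSC replicates 1 and 2, 1.225 to 2.59 and 0.476 to 1.40 CPM, overlapped, whereas those of H19 in the same libraries did not.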
